A study of Homo sapiens with 6 samples.

Results

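The cytosolic ribosomal protein genes were examined in A431CT and Dsg2KO cells. They were chosen with earlier results of these data known. The naming rule took genes called RPL or RPS with a number, and RPLP0, RPLP1, RPLP2 and RPSA, on chromosomes 1 to 22 or X. The count table holds 84 such genes among 21462, and 82 of them had enough reads to be tested, out of 12857 genes tested. A431 is an established human epidermoid carcinoma line. A431CT are control cells with the wild-type gene, and in Dsg2KO cells the desmosomal cadherin gene DSG2 had been knocked out with CRISPR/Cas9. Each genotype gave 3 polyA RNA libraries, which the study calls biological replicates. No drug treatment is named for either genotype, and the sources used here do not say whether Dsg2KO is 1 clone or several.

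The cytosolic ribosome is built from a small subunit, which reads the mRNA, and a large subunit, which joins the amino acids. Each ribosomal protein is needed in about the same amount, and its mRNA is among the most abundant in growing cells. Most of these mRNAs begin with a C followed by an unbroken run of C and T bases, the terminal oligopyrimidine tract, through which mTOR signaling and LARP1 control their translation and stability. A few members have a second gene copy, a paralog, whose protein can take the place of the parent.

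Compared to A431CT, Dsg2KO cells had lower mRNA levels of most ribosomal protein genes, each by a small amount. With edgeR and an adjusted p-value of 0.05, 50 of the 82 members fell, 4 rose and 28 did not pass. Among all genes tested, 15.3% fell and 14.3% rose at the same threshold, 29.6% in either direction. Every Dsg2KO library was below every A431CT library for 49 members and above for 6, as was so for 21.4% and 21.2% of all genes tested. The median log2 fold change was -0.24 over the members and 0.00 over all genes tested, and 71 members had a fold change below 0. Only 5 members also passed the fold minimum of 0.5 on the log2 scale, which 6.03% of all genes tested did. Of these, RPS21, RPS12 and RPSA fell, beside 3.03% of all genes, and RPL5 and RPL22L1 rose, beside 2.99%.

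Library totals lay between 12845719 and 16255692 counts. DSG2 itself was at 319 to 330 CPM (counts scaled to library size with TMM factors) in A431CT and at 49.7 to 55.1 CPM in Dsg2KO, a log2 fold change of -2.64 (edgeR adjusted p = 1.29e-14). The keratinocyte markers summed to 9943 to 10653 CPM in A431CT and to 10759 to 11161 CPM in Dsg2KO, although KRT14 was at 0 to 2 counts in every library. Markers of fibroblasts summed to at most 0.469 CPM and those of leukocytes to at most 2.69 CPM. The 4 endothelial markers summed to 8.44 to 11.3 CPM in A431CT and 15.1 to 15.7 CPM in Dsg2KO, and their part in the results was not tested. These are bulk libraries, in which fewer cells of a type and less RNA per cell cannot be told apart.

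One control library stood apart for the ribosomal protein genes. A431CT replicate 2 was the highest of the 6 libraries for 49 of the 82 members. Its median deviation from the mean of the 6 libraries was 0.22 on the log2 scale, against 0.08 and 0.04 in the other A431CT libraries and -0.17, -0.06 and -0.12 in the Dsg2KO libraries. Without A431CT replicate 2, 43 members fell, 39 of them among the 50, and the median was -0.17. At that setting 13.2% of all genes fell, and RPS12 and RPSA no longer reached the fold minimum. Without Dsg2KO replicate 1, 38 members fell, beside 11.5% of all genes, and 3 passed the fold minimum. Without A431CT replicate 3 as many as 10 passed it. With all libraries, 6.03% of all genes tested passed both thresholds. The shares past both thresholds with a library left out are not given here, so these counts cannot be set against them. Of the 50 members that fell, 35 were called with any 1 library left out, as were 3 of the 4 that rose.

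**Figure D1:**
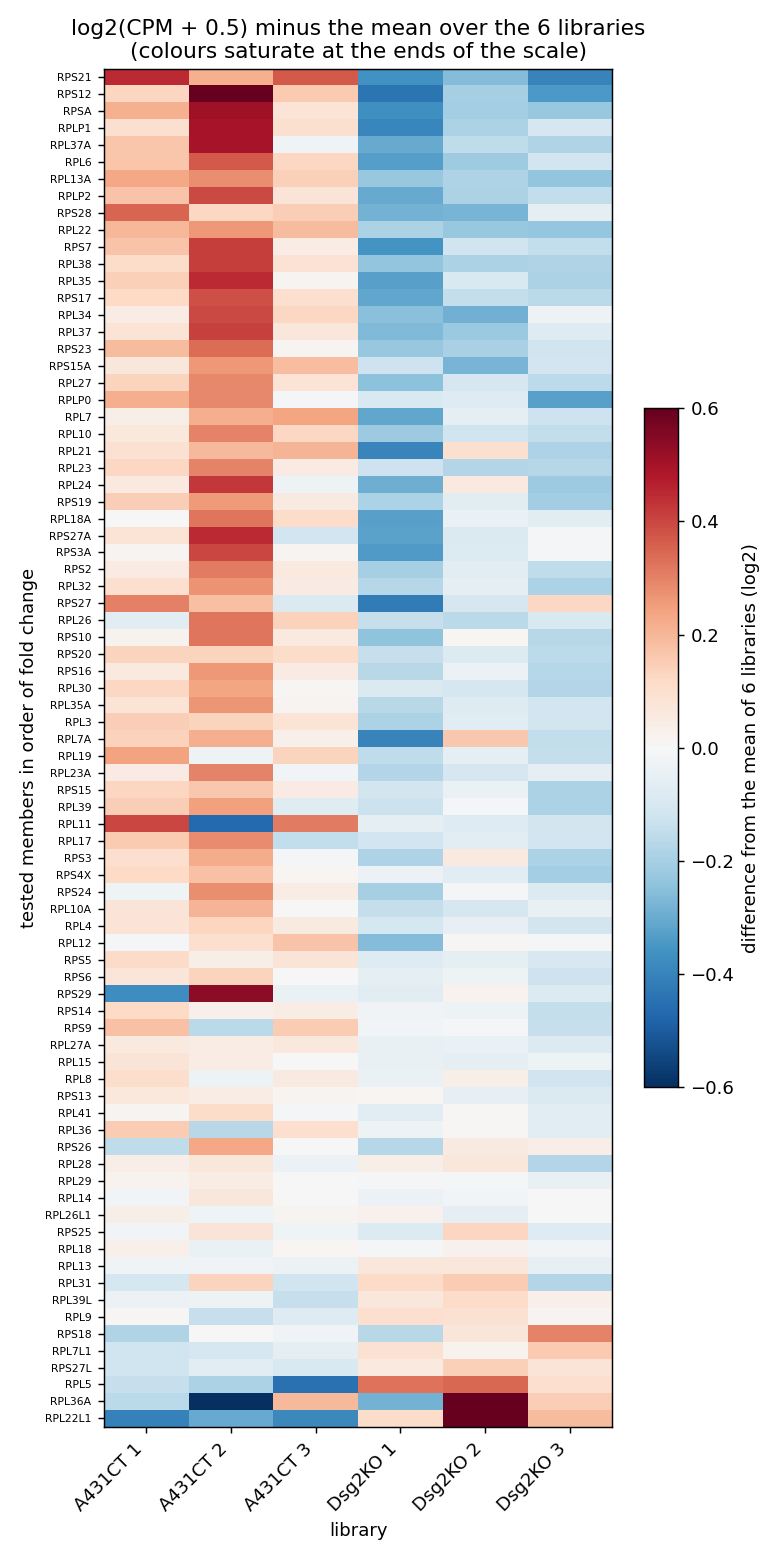
Each row is 1 of 80 tested members and each column 1 of the 6 libraries; the colour gives log2(CPM + 0.5) minus the mean of that gene over the 6 libraries, from blue (lower) to red (higher). Most rows are red in A431CT and blue in Dsg2KO, most strongly red in A431CT replicate 2, and the rows of RPL5 and RPL22L1 at the bottom run the other way.

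The first bases of several members show the tract that the family is known for. They are shown for the 3 genes that fell past the fold minimum, for the pairs of a parent and a tested paralog that both have an entry, and for RPL7L1, a paralog that rose, as 30 bases of the RefSeq promoter table (GRCh38.p14) with the listed transcript start at base 16. Capitals mark the unbroken run of C and T bases that includes the start, and sequences without capitals have neither C nor T at the start base.
RPS21, chr20:62387088-62387117, plus strand: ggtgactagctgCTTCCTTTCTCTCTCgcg
RPS12, chr6:132814554-132814583, plus strand: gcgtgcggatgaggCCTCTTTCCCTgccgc
RPSA, chr3:39406705-39406734, plus strand: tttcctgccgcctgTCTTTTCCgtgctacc
RPL22, chr1:6199581-6199610, minus strand: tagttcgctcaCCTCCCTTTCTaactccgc
RPL22L1, chr3:170870181-170870210, minus strand: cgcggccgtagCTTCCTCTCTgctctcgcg
RPL26, chr17:8383179-8383208, minus strand: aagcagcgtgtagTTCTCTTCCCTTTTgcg
RPL26L1, chr5:172958714-172958743, plus strand: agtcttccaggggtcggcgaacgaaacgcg
RPS27, chr1:153990747-153990776, plus strand: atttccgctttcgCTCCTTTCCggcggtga
RPS27L, chr15:63157463-63157492, minus strand: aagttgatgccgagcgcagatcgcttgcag
RPL7L1, chr6:42879601-42879630, plus strand: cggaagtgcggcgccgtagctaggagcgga

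A start run was counted where the start base is C and at least 4 further C or T bases follow, on the gene's own strand and at any start the table lists. By this count 47 of the 67 members with an entry (70.1%) had a start run, against 905 of 15020 other genes in the table (6.03%). Among the genes shown above, the parents RPL22, RPL26 and RPS27 had the run, as did the paralog RPL22L1, whereas RPL26L1, RPS27L and RPL7L1 did not. Among the 47 members with a run, the median log2 fold change was -0.25, and 27 of them (57.4%) fell. Among the 19 tested members with an entry and no run, it was -0.20, and 11 of them (57.9%) fell. With each library left out in turn, these counts ranged from 19 to 27 and from 9 to 13. The 16 tested members without an entry had a median of -0.27, and 12 of them fell. The differences between these sets were not tested, and the split rests on the listed start base. RPL19 has a listed start at a T inside a run of 12 C or T bases. RPS7 starts at a C inside a run of 11, of which 3 bases remain from that start. Both were counted as having no run. Of the 694 tested genes outside the family that have a start run, 18.9% fell, with a median of -0.01.

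**Figure D2:**
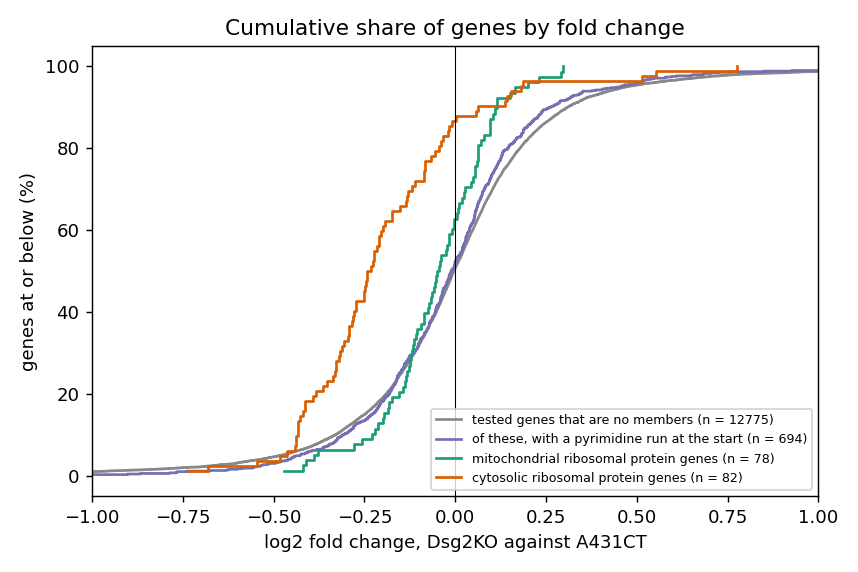
The horizontal axis is the log2 fold change between Dsg2KO and A431CT, shown from -1 to 1, and the vertical axis the percent of genes at or below it, for 4 sets of genes. The curve of the 82 cytosolic ribosomal protein genes lies to the left of the others over most of its length, with a median of -0.24, against -0.05 for the 78 mitochondrial ribosomal protein genes and -0.01 for the 694 other genes with a start run.

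In the small subunit, 22 of 31 tested members fell and none rose, beside 15.3% and 14.3% of all genes tested. The median log2 fold change there was -0.25. The 3 members that passed the fold minimum downward with all libraries belong here. Of the large subunit, RPLP1 also passed it without A431CT replicate 1 or Dsg2KO replicate 3, and RPL35, RPL37A, RPLP1 and RPLP2 did without A431CT replicate 3. RPS21 (chr20:62387103-62388520, plus strand, GENCODE 44 on GRCh38) was at 9.20, 7.74 and 8.68 CPM in A431CT and at 5.03, 5.44 and 4.88 CPM in Dsg2KO. All its Dsg2KO libraries were below all its A431CT libraries, with a log2 fold change of -0.74 ± 0.16 (SE, edgeR adjusted p = 0.00246). It rests on 75 to 117 counts per library.

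RPS12 (chr6:132814569-132817564, plus strand) was at 57.6, 85.1 and 58.7 CPM in A431CT and 38.7, 45.7 and 41.3 CPM in Dsg2KO. A431CT replicate 2 was well above the other controls, and the groups did not overlap. Its log2 fold change was -0.68 ± 0.12 (SE, edgeR adjusted p = 0.000531), and -0.47 without that library. RPSA (chr3:39406716-39426255, plus strand), which is also known as a laminin receptor, was at 141, 174 and 129 CPM in A431CT and 94.2, 106 and 104 CPM in Dsg2KO. Here too replicate 2 was the highest control and the groups did not overlap, with a log2 fold change of -0.55 ± 0.08 (SE, edgeR adjusted p = 0.000161), and -0.41 without replicate 2.

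RPS6, the substrate of the S6 kinases, was at 1064, 1112 and 1010 CPM in A431CT and 976, 993 and 929 CPM in Dsg2KO. The groups were separate but close, with a log2 fold change of -0.14 ± 0.04 (SE, edgeR adjusted p = 0.0130), and without Dsg2KO replicate 3 the adjusted p was 0.0560. RPS27A, which is made as a fusion to ubiquitin, had a log2 fold change of -0.29 and did not pass (edgeR adjusted p = 0.0607). However, it passed in 5 of 14 alternative settings, among them without A431CT replicate 3 (-0.41, edgeR adjusted p = 0.00837). Of the 9 genes listed for proteins that line the path of the mRNA through the small subunit, 8 fell, RPSA and RPS2 among them. The median of the 9 was -0.23, and 5 fell without A431CT replicate 1. Among all tested members 61.0% fell.

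One small subunit gene, singled out after its values were seen, turned on a single library. RPS29 was at 124, 233 and 156 CPM in A431CT and 154, 163 and 152 CPM in Dsg2KO. Its log2 fold change was -0.13 with A431CT replicate 2 and 0.16 without it, and it passed the test in neither case (edgeR adjusted p = 0.539 and 0.122).

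In the large subunit, 28 of 46 tested members fell and 1 rose, beside 15.3% and 14.3% of all genes tested. The median log2 fold change there was -0.24. The acidic stalk, to which the elongation factors bind, is formed by RPLP0, RPLP1 and RPLP2 next to RPL12. RPLP1 was at 336, 443 and 336 CPM in A431CT and 240, 275 and 294 CPM in Dsg2KO. RPLP2 was at 273, 319 and 255 CPM in A431CT and 196, 212 and 218 CPM in Dsg2KO. RPLP0, on which the other stalk proteins sit, was at 343, 359 and 292 CPM in A431CT and 277, 279 and 235 CPM in Dsg2KO. All 3 genes had every Dsg2KO library below every A431CT library. Their log2 fold changes were -0.46, -0.43 and -0.33, in the order RPLP1, RPLP2 and RPLP0, with edgeR adjusted p-values of 0.00122, 0.000162 and 0.00262. RPL12 did not pass, so that 3 of the 4 stalk genes fell. Of the 18 members listed as mutated in Diamond-Blackfan anemia, a failure of red cell production, 10 fell and RPL5 rose. The median of the 18 was -0.26, and 6 fell without Dsg2KO replicate 1. Among all tested members 61.0% fell.

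RPL13A (chr19:49487510-49493057, plus strand) was at 502, 518 and 471 CPM in A431CT and 364, 375 and 362 CPM in Dsg2KO. RPL22 (chr1:6185020-6209389, minus strand) was at 374, 390 and 372 CPM in A431CT and 285, 279 and 278 CPM in Dsg2KO. In both genes the groups were far apart compared to the spread within them, with log2 fold changes of -0.44 ± 0.04 and -0.43 ± 0.04 (SE, edgeR adjusted p = 1.37e-06 and 6.61e-07). RPL6 and RPL37A fell by as much, with log2 fold changes of -0.44 each (edgeR adjusted p = 8.52e-05 and 0.00226), and for RPL37A the value was -0.28 without A431CT replicate 2. The 7 genes listed for proteins around the exit of the peptide tunnel had a median of -0.23. Of these, 5 fell, beside 61.0% of all tested members. However, 2 did without A431CT replicate 2 or without Dsg2KO replicate 1, and 3 did without Dsg2KO replicate 2. RPL26 had a log2 fold change of -0.27 (edgeR adjusted p = 0.0154), and its adjusted p-value was 0.0808, 0.0553 and 0.0586 when these libraries were left out in that order. RPL39 had a log2 fold change of -0.22 (edgeR adjusted p = 0.0420), with adjusted p-values between 0.12 and 0.184 without A431CT replicate 1 or 2 or Dsg2KO replicate 1 or 3. It did not pass with total counts alone or with DESeq2 either (adjusted p = 0.0639 and 0.0575).

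**Figure D3:**
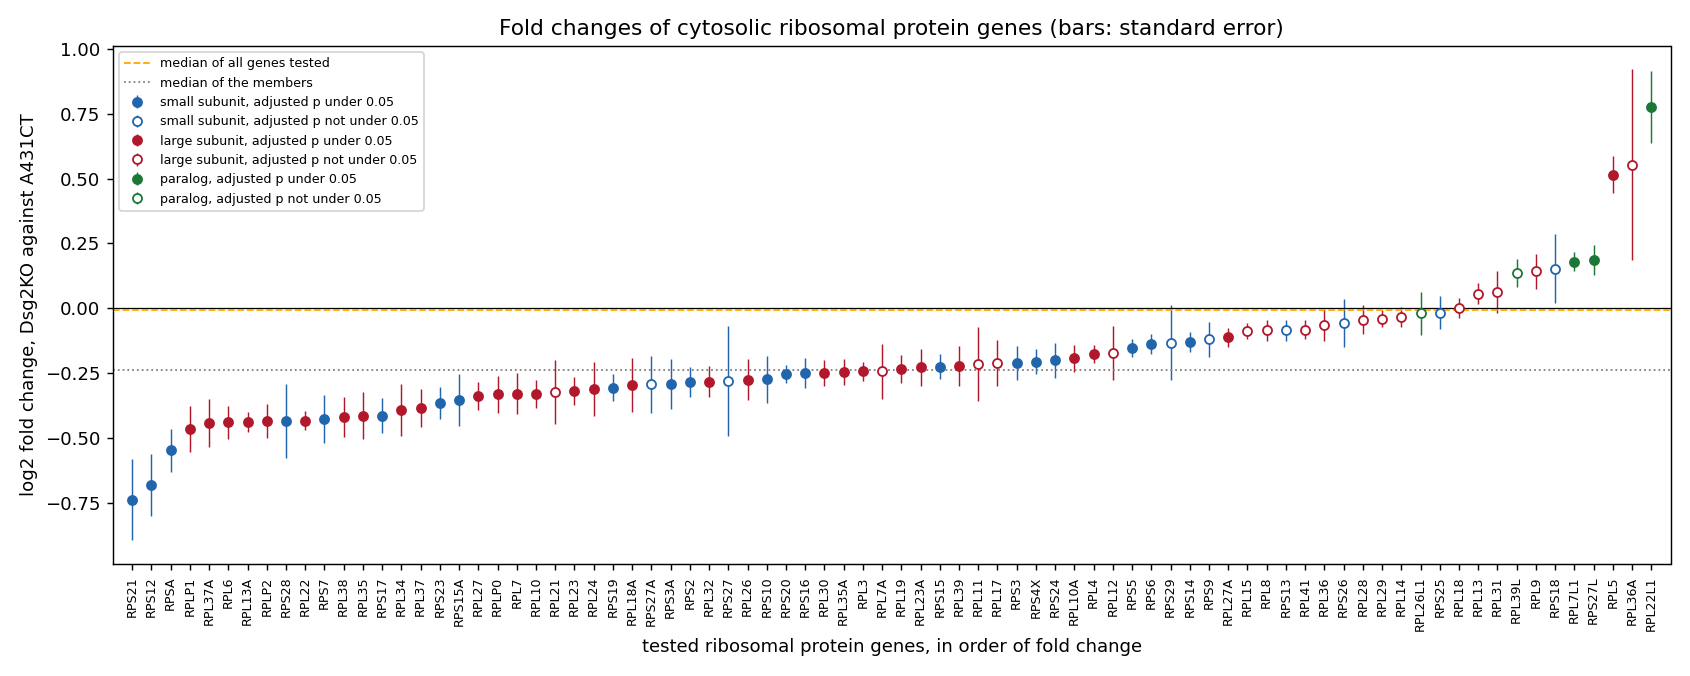
Of the tested members, 80 are placed along the horizontal axis in the order of their log2 fold change between Dsg2KO and A431CT, with bars for the standard error, filled where the adjusted p-value was under 0.05 and open where it was not. The small subunit (blue) and the large subunit (red) fill the range from -0.74 upward, and the 5 paralogs (green) are all in the right part of the plot, from -0.02 to 0.78.

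RPL5 was the only member outside the paralogs that rose. Together with RPL11 and the 5S rRNA it forms a particle that is added to the large subunit as a whole, and that binds MDM2 when ribosome assembly is disturbed. RPL5 (chr1:92832013-92841924, plus strand) was at 778, 751 and 626 CPM in A431CT and 1074, 1088 and 919 CPM in Dsg2KO. Every Dsg2KO library was above every A431CT library, with a log2 fold change of 0.52 ± 0.07 (SE, edgeR adjusted p = 6.47e-05). It stayed past the adjusted p in each library left out, with values from 0.43 to 0.59 over all settings, and without Dsg2KO replicate 1 or Dsg2KO replicate 2 it was under the fold minimum.

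RPL11 (chr1:23691742-23696835, plus strand) was at 608, 333 and 571 CPM in A431CT and 441, 436 and 426 CPM in Dsg2KO. The Dsg2KO libraries were close to each other, and A431CT replicate 2 was far below the other controls. The log2 fold change was -0.21 ± 0.14 (SE, edgeR adjusted p = 0.286) with that library and -0.44 ± 0.04 (adjusted p = 4.09e-07) without it. The count of RPL5 over that of RPL11 was 1.28, 2.25 and 1.10 in A431CT and 2.43, 2.50 and 2.16 in Dsg2KO. The second control ratio lay within the range of the Dsg2KO libraries, and the others lay below it.

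RPL5 overlaps DIPK1A by 9188 bases on the opposite strand, and whether counting used the strand is not given in the sources used here. DIPK1A rose by 0.37 on the log2 scale (edgeR adjusted p = 0.000275), from a mean of 60.5 to 78.4 CPM. That is a gain of 17.9 CPM, beside a gain of 309 CPM for RPL5.

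None of the 7 listed paralogs passed the test downward, and RPL36AL, whose symbol the naming rule leaves out, is not among them. Of the 7 genes, 5 were tested and 3 of them rose, beside 14.3% of all genes tested. The median log2 fold change of the 5 was 0.18. Without A431CT replicate 1, A431CT replicate 3 or Dsg2KO replicate 2, 2 of them rose. RPL22L1 (chr3:170864875-170870208, minus strand), whose mRNA the RPL22 protein is known to bind and hold down, was at 30.3, 32.5 and 30.7 CPM in A431CT and 43.5, 70.2 and 45.9 CPM in Dsg2KO. The A431CT libraries were alike, all Dsg2KO libraries were above them, and Dsg2KO replicate 2 was the highest. The log2 fold change was 0.78 ± 0.14 (SE, edgeR adjusted p = 0.000691), the highest of the 82 tested members, and 0.52 without Dsg2KO replicate 2. The count of RPL22L1 over that of RPL22 moved from 0.0809, 0.0833 and 0.0824 in A431CT to 0.153, 0.252 and 0.165 in Dsg2KO. None of the 100-base words of the RPL22L1 transcript is shared with another gene.

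RPL7L1 (chr6:42879616-42889925, plus strand), which takes part in making the ribosome, was at 802, 812 and 839 CPM in A431CT and 926, 882 and 971 CPM in Dsg2KO. The groups were separate, with a log2 fold change of 0.18 ± 0.04 (SE, edgeR adjusted p = 0.00192), while its parent RPL7 fell by 0.33 on the log2 scale (adjusted p = 0.00502). RPS27L (chr15:63125872-63158021, minus strand), a gene induced by p53, was at 42.9, 44.5 and 43.7 CPM in A431CT and 48.5, 51.5 and 49.1 CPM in Dsg2KO. Its log2 fold change was 0.19 ± 0.06 (SE, edgeR adjusted p = 0.0227). It did not pass with DESeq2, and leaving out A431CT replicate 1, A431CT replicate 3 or Dsg2KO replicate 2 gave adjusted p-values of 0.0781, 0.0504 and 0.0833. It overlaps LACTB by 16190 bases on the opposite strand, and LACTB gained 7.98 CPM beside a gain of 6.01 CPM for RPS27L, so that reads of the pair cannot be told apart here.

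RPL39L was at 63.7, 63.9 and 59.2 CPM in A431CT and 68.3, 70.4 and 66.6 CPM in Dsg2KO. These groups did not overlap, but the log2 fold change of 0.14 did not pass the test (edgeR adjusted p = 0.0636). RPL26L1 was at 18.2 to 19.4 CPM in every library, with a log2 fold change of -0.02. RPL3L and RPL10L were too low to be tested, at 1 to 10 and at 0 to 1 counts per library.

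**Figure D4:**
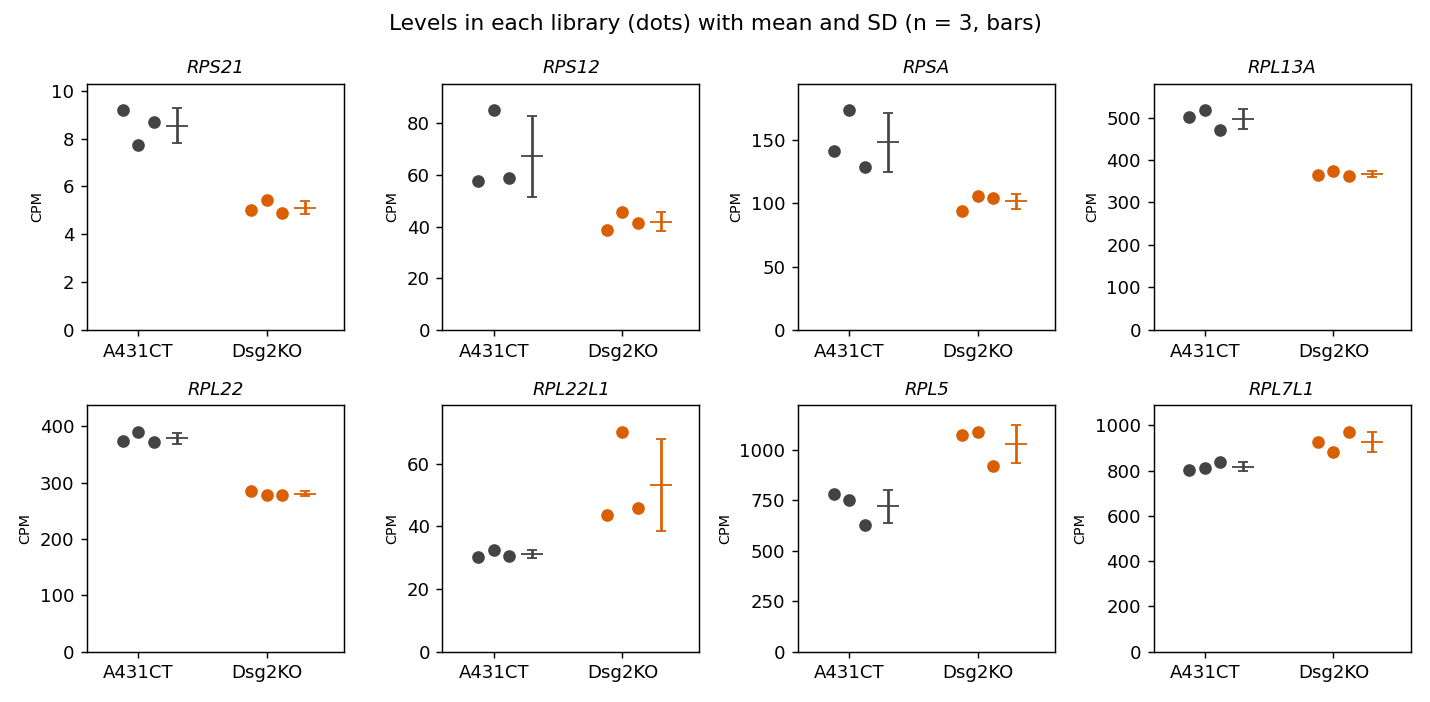
The level in CPM in each of the 3 A431CT (grey) and 3 Dsg2KO (orange) libraries are given as dots for 8 members, with the mean and SD beside them, on axes that start at 0. RPS21, RPS12, RPSA, RPL13A and RPL22 are lower in all Dsg2KO libraries, and RPL22L1, RPL5 and RPL7L1 are higher in all of them.

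In total, member genes took 2.38%, 2.46% and 2.29% of the counts in A431CT and 2.14%, 2.23% and 2.12% in Dsg2KO. The means were 2.38 ± 0.0852% and 2.16 ± 0.0614% (SD, n = 3 each), and the groups did not overlap. The difference of -0.216 percentage points had p = 0.1 in a two-sided exact permutation test, which is the smallest value that 3 against 3 libraries can give. The 82 tested members differed 860-fold in mean CPM between the highest and the lowest. Per kilobase of the canonical transcript, RPL8, RPL41, RPS2, RPL19 and RPL5 were the highest, with mean levels of 1623, 1499, 1139, 897 and 849 CPM per kb. Of these 5, RPS2 and RPL19 fell and RPL5 rose. RPL8 and RPL41 had log2 fold changes of -0.09 and -0.08 and did not pass (edgeR adjusted p = 0.125 and 0.0982), though RPL8 passed without A431CT replicate 2 or Dsg2KO replicate 2 (adjusted p = 0.0257 and 0.0423) and RPL41 with the replicate number as a block (0.0291).

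A few members rested on few counts. RPS27 was at 49 to 81 counts per library, RPL36A at 14 to 58 and RPS18 at 131 to 235, and none of them passed the test. The human genome holds many processed copies of this family. Gene symbols in GENCODE name 1588 pseudogenes for 77 of the members, while the count table used here has no row with such a symbol. Of the canonical transcripts of the 84 members, 22 shared no 100-base word with the transcripts of another gene, and 14 shared at least 50% of their words. RPS27 shared 61.7% and RPSA 59.1%, against 0% for RPS21, RPLP2, RPL11 and RPL8. How the counting treated reads that match several places is not given in the sources used here. Spearman's rho between mean CPM and the percent of shared words was -0.36 over 82 members, which are not independent, and that between log2 fold change and the percent of shared words was -0.16. Among the 35 tested members that shared under 5%, 21 fell and 2 rose, beside 15.3% and 14.3% of all genes tested. The median log2 fold change of these members was -0.20.

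By chromosome, the members were lower than the genes around them nearly everywhere. On all 21 chromosomes with a tested member, the median log2 fold change of the members was below that of the other tested genes, but 6 of these chromosomes hold a single tested member. Without A431CT replicate 2 it was so on 20, the exception being chromosome 14, where RPS29 was then at 0.16. It was so on the 15 chromosomes with several members whichever library was left out. The members are scattered, with at most 12 on 1 chromosome. On chromosome 19, 7 of 12 fell, at a median of -0.19 against -0.01 for the other genes. On chromosome 17, 6 of 6 fell, at -0.30 against -0.05. The share of all genes tested that fell was 15.3%. Each member was then set against the median of the 50 nearest tested genes outside the family. Of the 82 members, 71 were below that value, and the median of the difference was -0.21 (log2).

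The neighborhoods themselves were not all level. Their medians ranged from -0.33 to 0.27, and Pearson's r between member and neighborhood was 0.38 (Spearman's rho 0.32) over 82 members that partly share neighbors. RPL22, on the short arm of chromosome 1, lay among genes with a median of -0.33, and differed from it by -0.10. RPL11 on the same arm had a neighborhood median of -0.31 and was 0.10 above it, but differed from it by -0.12 without A431CT replicate 2. RPLP0 on chromosome 12 was likewise near its neighborhood, which had a median of -0.22. RPS21, RPS12 and RPSA had neighborhood medians of -0.19, -0.23 and 0.01. They differed from their neighborhoods by -0.55, -0.45 and -0.56, and RPS12 by -0.28 without A431CT replicate 2. RPL13 on chromosome 16, at a log2 fold change of 0.06 that did not pass the test, lay among genes with a median of 0.27. RPL5 and RPL22L1 were above their neighborhoods, by 0.38 and 0.75, and RPL22L1 by 0.49 without Dsg2KO replicate 2.

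**Figure D5:**
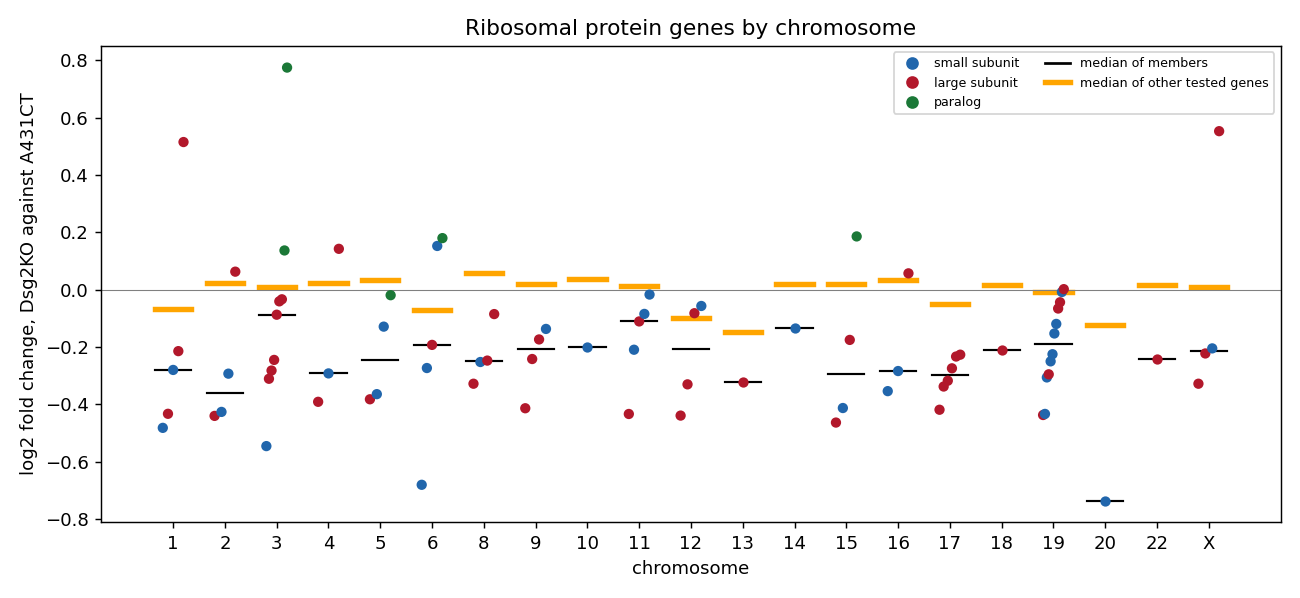
For each chromosome with a tested member, dots give the log2 fold change of each member between Dsg2KO and A431CT, the black line their median and the orange line the median of the other tested genes there. The black line is below the orange one on all 21 chromosomes, and the gap is smallest on chromosome 3, at -0.10.

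Chromosome 3 had the member median farthest from that of the family among chromosomes with several members, at -0.09 over 9 members. Without A431CT replicate 2 or Dsg2KO replicate 3 that was chromosome 1 (-0.41 and -0.43), and without A431CT replicate 3 it was chromosome 2 (-0.46). RPSA, RPL32, RPL24 and RPL35A fell there and RPL22L1 rose. RPL32 and RPL35A had log2 fold changes of -0.28 and -0.25 (edgeR adjusted p = 0.00229 and 0.00221). RPL24 had one of -0.31 (edgeR adjusted p = 0.0340), and leaving out A431CT replicate 2 (-0.16), Dsg2KO replicate 1 or Dsg2KO replicate 3 ended the call (adjusted p = 0.182, 0.155 and 0.115), as did DESeq2 (0.221). RPL14 and RPL29 had log2 fold changes of -0.03 and -0.04 and did not pass. RPL15 had a log2 fold change of -0.09 and did not pass (edgeR adjusted p = 0.0548). However, it passed in 3 of 14 alternative settings, among them without A431CT replicate 3 (edgeR adjusted p = 0.0355).

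Genes whose products work with the ribosome were counted in the same way. The shares of all genes tested that fell (15.3%) and rose (14.3%) apply to each list. Unlike the members, none of these genes was set against its chromosome neighbors. Of the ribosomal protein genes whose symbols the naming rule leaves out, FAU, which encodes a ribosomal protein fused to a ubiquitin-like one, fell from a mean of 66.3 to 53.5 CPM (log2 fold change -0.31, edgeR adjusted p = 0.00111). RPL36AL had a log2 fold change of -0.17 (adjusted p = 0.0190), but did not pass without A431CT replicate 1, A431CT replicate 2 or Dsg2KO replicate 3 (adjusted p = 0.0589, 0.0586 and 0.0829). RACK1 did not pass (adjusted p = 0.338). Of 6 tested elongation factors, 3 fell and 1 rose, EEF1D, named after its value was seen (edgeR adjusted p = 0.0380), but none rose without A431CT replicate 1, A431CT replicate 2, Dsg2KO replicate 2 or Dsg2KO replicate 3. EEF1A1, which brings the tRNAs to the ribosome and whose own mRNA has a start run, fell from 5759 to 4605 CPM (log2 fold change -0.32, edgeR adjusted p = 5.17e-06). EEF1G fell by 0.35 on the log2 scale (adjusted p = 0.00280). Of 29 initiation factors, 10 fell and 4 rose, at a median of -0.03, among them EIF3I (-0.44) and EIF4G2 (0.23). The count that fell was 6 without A431CT replicate 1, where 2 rose, and 4 without Dsg2KO replicate 1.

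Of 52 genes for ribosome assembly in the nucleolus and cytoplasm, 4 fell and 15 rose, at a median log2 fold change of 0.06. RRP1B rose by 0.46 on the log2 scale and MRTO4, which prepares the site of the stalk, had a log2 fold change of -0.36 (edgeR adjusted p = 2.61e-06 and 6.53e-06). The 2 that rose past the fold minimum, named after their values were seen, were NOP2 and PWP2. NOP2, an rRNA methyltransferase, was at 5.82, 7.07 and 13.8 CPM in A431CT and 27.1, 35.3 and 37.0 CPM in Dsg2KO, a log2 fold change of 1.90 (edgeR adjusted p = 7.40e-06). PWP2 was at 2.51 to 2.87 CPM in A431CT and 4.70 to 7.58 CPM in Dsg2KO. Whether the genes around the named assembly genes changed alike was not tested.

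Of 12 genes of RNA polymerase I and its factors, 2 fell and 4 rose, against shares of 15.3% and 14.3% over all genes tested, with POLR1D at a log2 fold change of -0.33 and the catalytic subunit POLR1A at 0.30 (edgeR adjusted p = 9.70e-05 and 0.000374). Of 13 tested genes of mTOR signaling and the control of these mRNAs, 3 fell and none rose, beside 15.3% and 14.3% of all genes tested, and 1 fell without Dsg2KO replicate 2. MTOR had a log2 fold change of -0.29 (edgeR adjusted p = 0.000671). EIF4EBP1 had one of -0.19 (adjusted p = 0.0134), which did not pass without A431CT replicate 2 or Dsg2KO replicate 2 (0.0713 and 0.0545). Of 10 chaperones and importers of ribosomal proteins, 1 fell (NAP1L1, -0.28) and 3 rose, IPO5 among them (0.20).

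The mitochondrial ribosome, which is built from a separate set of nuclear genes, served for comparison. Of its 78 genes, all tested, 12 fell and 6 rose, at a median log2 fold change of -0.05. Among all genes tested, 15.3% fell and 14.3% rose. MRPL37 and MRPL20, both on chromosome 1, had log2 fold changes of -0.42 and -0.47 (edgeR adjusted p = 2.11e-06 and 2.26e-06). No mitochondrial ribosomal protein gene passed the fold minimum in either direction. These genes, too, were not set against their chromosome neighbors.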

How the data were processed

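RNA-seq counts of 3 A431CT and 3 Dsg2KO libraries were used. According to the methods, reads were trimmed, aligned to GRCh38 and counted per gene in CLC Genomics Workbench; the annotation, strand setting and treatment of multiply matching reads are not given in the sources used here. The deposited values are raw counts per gene without normalization. All columns were mapped to a sample. The members and lists were chosen with earlier results of these data known.

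All genes were fitted with edgeR 4.0.16 (R 4.3.3): TMM, filterByExpr (minimum count 10, minimum total 15), quasi-likelihood F test without covariates, and Benjamini-Hochberg adjustment over 12857 genes. Thresholds were an adjusted p of 0.05 and, where named, an absolute log2 fold change of 0.5. The standard error is the log2 fold change over the root of F. The fit was tested on simulated data.

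Positions came from GENCODE 44 by symbol (19478 of 21462 placed). Neighbors were the 50 nearest tested genes, 25 on each side. Start windows came from the RefSeq promoter table. Genes named were those past both thresholds, the 8 highest and 8 lowest fold changes, the 5 highest levels per kb, paralogs with parents, RPS6, RPL5, RPL11, RPSA, RPS27A and the stalk genes, members on the chromosome farthest from the family median, and at most 2 genes with the smallest p from each other list. The 10 host genes of small nucleolar RNAs listed had no row in the table used here. Replicates differed by more than counting error (chi-square per degree of freedom 2.66 to 4.20). Alternatives were RLE factors, total counts, TMM without members, other count filters, DESeq2 1.42.0, the likelihood ratio test, a replicate block, other fold minimums and neighbor numbers, and leaving out each library. Results for a few genes are not reported here.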

Additional observations from a re-analysis of the deposited data

How the results depend on the processing

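The count of members past both thresholds was 36 with a fold minimum of 0.25 and 0 with one of 1, and ranged from 3 to 10 when each library was left out. The count of members that fell ranged from 38 to 51 and the median log2 fold change from -0.28 to -0.17 in the same way. Of all genes tested, 11.5% to 13.6% fell with a library left out. The shares of all genes past both thresholds at these settings are not given here. Among members with under 5% shared words, a restriction chosen after seeing the data, 21 of 35 fell and 2 rose; the lower counts come from the smaller number of members. With DESeq2, 45 members fell, beside 12.4% of all genes, and 44 of these members were among the 50. With total counts alone, which moved the median of all genes from 0.00 to 0.02, 46 fell and 5 rose. At that setting 13.3% of all genes fell. Over 39 members named by the rule above and 546 alternative values, 513 kept their direction and side of the threshold. Of the others, 18 lost the call and 13 gained it, and none that was called reversed. RPL26L1, which was never called, changed sign in 2. RPS29, which changed sign without A431CT replicate 2, is not among these 39 members, nor are RPL12, RPL13, RPL35 and RPS7. For 23 named genes outside the family, leaving out each library, added after seeing the data, gave 138 values, of which 12 lost the call, 1 gained it and none that was called reversed.

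Replicate numbers did not pair the samples: the correlations of the deviations of libraries with the same number were -0.0027, 0.0135 and 0.0539. With the replicate block, 55 members fell, all 50 among them, 4 rose and 5 passed both thresholds, at a median of -0.24. At that setting 15.9% of all genes fell. Depth limits the members with few counts, and the floor of 3 counts stood at 0.183 to 0.236 CPM.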
